A study of Mus musculus with 2 samples.

Results

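Cystatins and stefins are small proteins that bind and block cysteine peptidases of the papain type, such as the cathepsins. The genes described here are Cst3, Cst6, Cstb, Csta1, Cstdc4, Cstdc5, Cstdc6, Stfa1 and Stfa3. They were chosen by gene symbol, with the near loss of Cstdc5 reads in one of the libraries already known, so their differences between the libraries are given as a description and without a test. All 9 were among the 40879 gene symbols of the count files, and 8 had a read in the WT library against 6 in the library labelled ERAP1+/-.

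Intestine was taken from C57BL/6 mice of 2 genotypes, wild type (WT) and ERAP1+/-, which are given as 8 weeks old and received neither dextran sulfate sodium nor sulfasalazine. The study gives this age for mice at assignment to groups, and its untreated controls were sampled some weeks later. Whether the sequenced mice were among those controls is not stated, so their age at sampling is uncertain. The ERAP1+/- mice descend from a single embryonic stem cell clone carrying the tm1a allele and were crossed with a strain expressing Cre recombinase, which is not named further, to delete exons 6 and 7 of Erap1. RNA of 3 mice was pooled per genotype and sequenced from the 3' end as 1 library, so no difference has a replicate check and the spread between mice is unknown. The WT library held 8114826 reads and the library labelled ERAP1+/- 8907515.

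Erap1, the gene that was targeted, was covered by 229 reads in WT against 2 in the library labelled ERAP1+/-. That goes against a heterozygous label, since a heterozygote keeps an intact copy, and the library is called by its label throughout. Reads come from the 3' end of the transcript, outside the deleted exons, so that this count does not measure the deletion itself. Xist had 1635 and 6451 reads and the Y-linked Ddx3y 319 and 29, and the sex of the mice is not given in the labels. All 12 markers of colonic epithelium passed the level used below, with a median difference of -0.32 on the log2 scale and a single gene, Krt20 (-1.20), more than 2-fold lower. Differences between the pools in sex or in the piece of intestine taken cannot be told apart from genotype.

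Cystatins fall into types by structure and location. The stefins, or type 1 cystatins, lack a signal peptide and act inside the cell, where they hold in check cathepsins that leak from lysosomes. The type 2 cystatins are secreted and carry disulfide bonds. Humans have a single stefin A gene, whereas mice carry a cluster of stefin A genes on chromosome 16. Stefin A is known from the cornified layer of stratified epithelium and from neutrophils, and Cst6 (cystatin E/M) is needed for a normal skin barrier, where it restrains legumain and cathepsin L.

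Levels are given as CPM (counts per 1e6 reads of a library size adjusted by TMM, the trimmed mean of log ratios), and differences as log2(CPM + 1) of the library labelled ERAP1+/- minus that of the WT library. CPM was not divided by gene length, because the kit reads the 3' end of a transcript whatever its length. A gene was called lower or higher where it differed more than 2-fold on this scale and reached 4, or 15 CPM, in 1 or both libraries. Of the 9 members, 6 reached that level, and 4 of these, Cst6, Csta1, Cstdc5 and Stfa3, were called lower and 0 higher. Over all 8013 genes past the level, 3.96% were called lower, 1.39% higher and 5.34% either, and because the members were chosen with this contrast known, nothing is read from the gap between these shares. In bulk tissue, fewer cells of a type and less RNA per cell cannot be told apart. The median difference over the 6 members was -4.03, beside -0.03 over all genes past the level. Intervals are exact 95% intervals and cover counting error only.

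**Figure D1:**
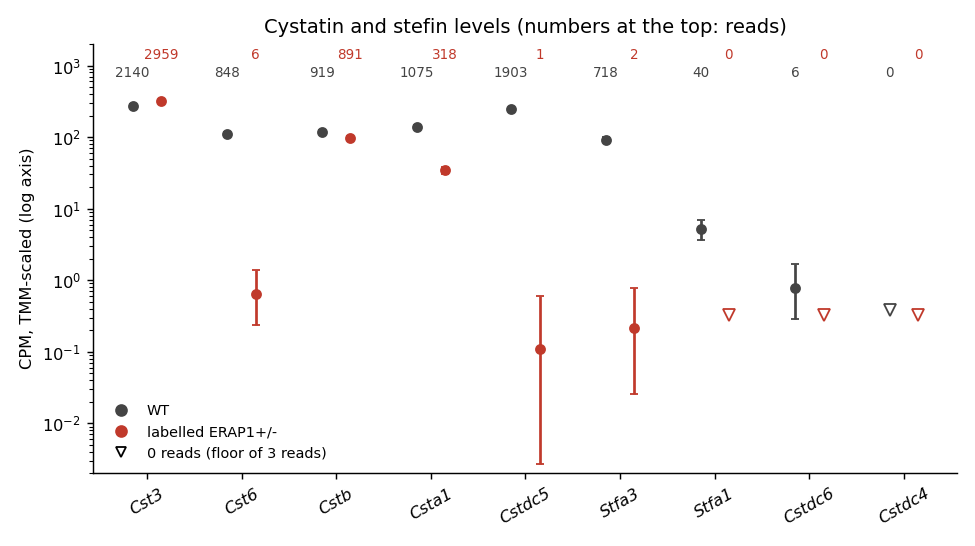
Level of each cystatin and stefin in the WT library (grey) and in the library labelled ERAP1+/- (red), as TMM-scaled CPM on a log axis, with exact 95% Poisson intervals. The reads behind each point stand at the top and open triangles mark 0 reads at the floor of 3 reads. Cst3 and Cstb lay close together in both libraries, whereas Cst6, Cstdc5 and Stfa3 lay near 100 CPM or above in WT and under 1 CPM in the other.

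Among the secreted cystatins, Cst3 and Cst6 went apart. Cst3 encodes cystatin C, an inhibitor made by most cell types, and lies on chromosome 2 of GRCm38 from 148871722 to 148875512. It had 2140 reads (275 CPM) in WT and 2959 (318 CPM) in the library labelled ERAP1+/-, a ratio of 1.16 (95% interval 1.09 to 1.22) and a difference of 0.21. With that, it was the only member past the level with a higher value in the library labelled ERAP1+/-, and it was not past 2-fold. Cst6 (chromosome 19, 5344705 to 5349574) had 848 reads (109 CPM) and 6 reads (0.645 CPM). Its level in the library labelled ERAP1+/- was 0.591% of that in WT (95% interval 0.216% to 1.29%), and it stood at place 25 from the lowest among the 8013 genes.

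Cstb encodes stefin B, a cytosolic and nuclear inhibitor of cathepsins B, H, L and S that most cells make, and whose loss in humans causes a progressive myoclonus epilepsy. It lies on chromosome 10 from 78425670 to 78427622, away from the stefin A genes. It had 919 reads (118 CPM) in WT and 891 (95.8 CPM) in the library labelled ERAP1+/-. The level there was 81.0% of WT (95% interval 73.8% to 88.9%), a difference of -0.30 that was not past 2-fold. Cst3 and Cstb, the members that most cell types express, were thus the only members past the level that stayed within 2-fold.

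The stefin A genes were read against each other next. Cstdc5, listed as BC100530 in GENCODE M21, is found on chromosome 16 (36359382 to 36367570, minus strand) and encodes a protein of the stefin A type. It had 1903 reads (245 CPM) in WT and 1 read (0.108 CPM) in the library labelled ERAP1+/-. The level there was 0.0439% of WT, with a 95% interval from 0.00111% to 0.245% because it rests on a single read, and the difference was -7.79. Only 2 of the 8013 genes past the level had a lower difference. In the WT library Cstdc5 had more reads than every other member but Cst3.

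Stfa3 (chromosome 16, 36450537 to 36455392, minus strand) encodes stefin A3. It had 718 reads (92.4 CPM) in WT and 2 reads (0.215 CPM) in the library labelled ERAP1+/-, which is 0.233% of the WT level (95% interval 0.0281% to 0.844%), a difference of -6.26. Csta1 (chromosome 16, 36119946 to 36131189, minus strand) encodes a stefin A protein at the other end of the cluster and behaved differently. It had 1075 reads (138 CPM) and 318 reads (34.2 CPM). The level in the library labelled ERAP1+/- was 24.7% of WT (95% interval 21.7% to 28.0%), a difference of -1.99, so that of the 4 members called lower it alone was past the level in both libraries.

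The 3 remaining members did not reach the level. Stfa1 (36277148 to 36285371), which encodes stefin A1, had 40 reads (5.15 CPM) in WT and 0 in the library labelled ERAP1+/-. Since 3 reads could have been missed there, a level of up to 0.323 CPM, Stfa1 was at least 15.96-fold lower for its 40 reads, and 12.4-fold at the exact 95% limit that also counts the error of these reads. For Cstdc6 (36321665 to 36334332) there were 6 reads and 0, or at least 2.39-fold lower by the same floor and 1.41-fold at the exact limit. Cstdc4 (36184212 to 36188111) had 0 reads in both libraries, at a floor of 0.386 CPM in WT, and no fold is given.

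**Figure D2:**
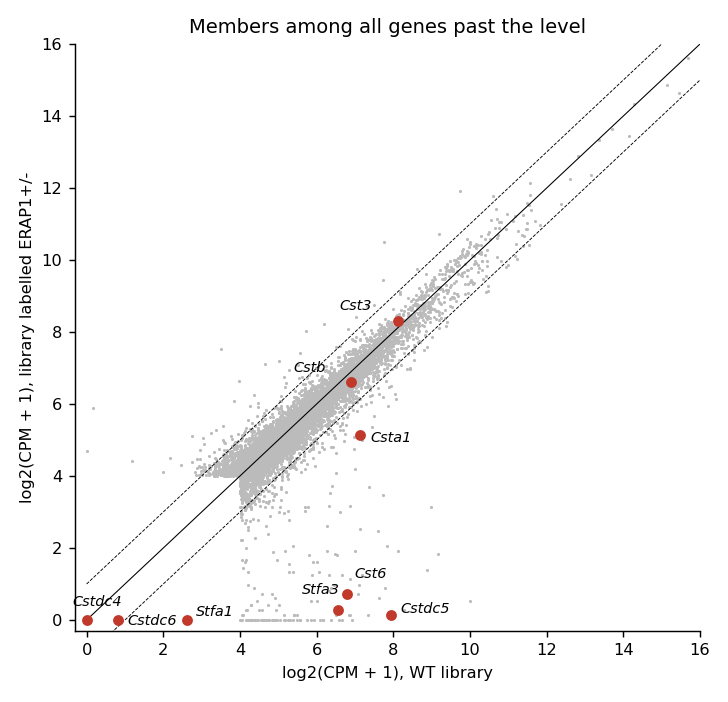
Level of each gene in the WT library (x axis) and in the library labelled ERAP1+/- (y axis), both as log2(CPM + 1), for the 8013 genes that reached 4 in 1 or both libraries (grey) and the 9 members (red). The solid line marks equal levels and the dashed lines a 2-fold difference. Cst3 and Cstb lie between the dashed lines, Csta1 lies below them, and Cst6, Stfa3 and Cstdc5 lie near the lower edge of the plot.

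The cluster on chromosome 16 of GRCm38 holds 11 stefin genes of the files within 335.4 kb, from 36119946 to 36455392. Beside the 6 members named above these are Csta2, Csta3, Stfa2, Stfa2l1 and Cstdc3. Csta2 had 4 WT reads and 12 in the library labelled ERAP1+/-, a ratio of 2.51 whose 95% interval (0.760 to 10.7) includes 1, Stfa2 had 5 and 0, Stfa2l1 had 0 and 1, and Csta3 and Cstdc3 had none. Genes with few or no reads thus lay between those past the level: Stfa2l1, Cstdc4, Csta3, Csta2, Stfa1, Cstdc3 and Cstdc6 separate Csta1 from Cstdc5, and Stfa2 lies between Cstdc5 and Stfa3.

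The nearest genes with 10 or more reads over both libraries outside the cluster differed less. On the side of Csta1, Fam162a had 1279 and 1327 reads (difference -0.21), Wdr5b 24 and 23 (-0.24) and the gene model Gm41450 11 and 30 (0.81, with a ratio of 2.28 and a 95% interval of 1.11 to 5.04). On the side of Stfa3, Ildr1, which encodes a protein of tricellular junctions, had 450 and 644 reads (0.25), the peptide transporter gene Slc15a2 13 and 9 (-0.44) and the co-stimulatory gene Cd86 8 and 6. On the log2(CPM + 1) scale none of these 6 was past 2-fold, though Gm41450, at a low level, was by its ratio. The annotated features inside the cluster other than the stefins listed above had 0 reads.

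**Figure D3:**
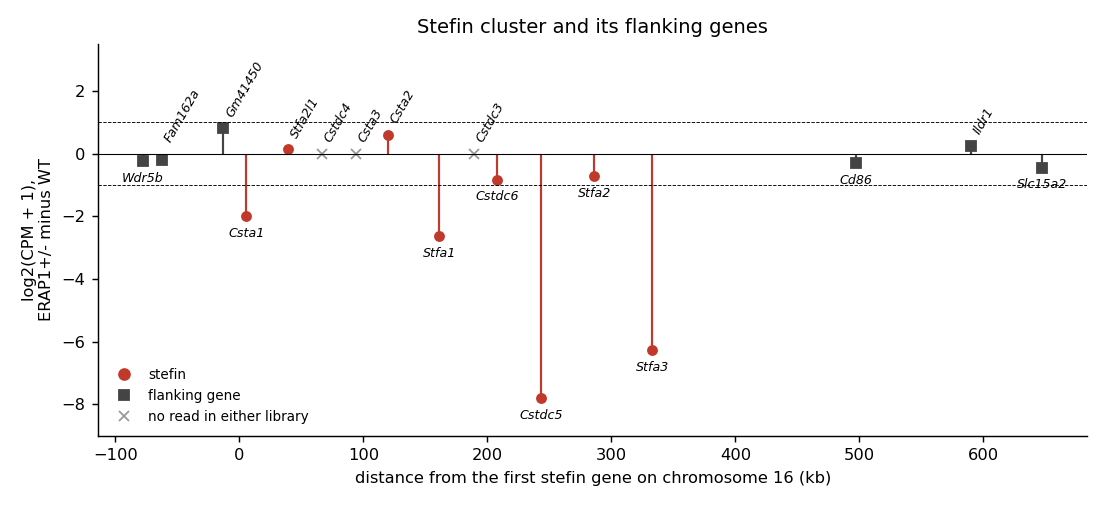
Difference of log2(CPM + 1) between the library labelled ERAP1+/- and the WT library for the 11 stefin genes of the chromosome 16 cluster (red circles) and the 3 nearest genes with 10 or more reads on each side (grey squares), by distance from the start of Csta1 in kb. Crosses mark genes without a read and dashed lines a 2-fold difference. Cstdc5 (-7.79) and Stfa3 (-6.26) reach furthest down, and the flanking genes lie between -0.44 and 0.81.

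Reads of such close relatives may be shared in the counting, so the sequences were compared. Over the coding sequences of GENCODE M21, Cstdc5 was 95.2% identical to Cstdc6, 89.0% to Csta3, 82.8% to Csta1, 79.3% to Stfa3 and 74.2% to Stfa1, whose longest annotated coding sequence is 384 bases against 291 for Cstdc5. Cstb shared 58.6% with Cstdc5, and the secreted Cst3 and Cst6 shared 52.6% with each other. All stretches of 75 bases, the length of a read, were then taken from the last 300 bases of each transcript. For Cst3, Cst6, Cstb, Csta1 and Stfa3, every such stretch was absent from the transcripts of all other genes. For Cstdc5 this held for 74.4%, for Stfa1 81.1%, for Cstdc4 81.8% and for Cstdc6 71.7%.

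With up to 2 mismatches allowed, 75.5% of the stretches of Stfa1 and 66.8% of those of Cstdc6 had a counterpart in Cstdc5, and 58.3% of those of Cstdc5 had one in Stfa1. The 40 WT reads of Stfa1 and the 6 of Cstdc6 may therefore be reads of Cstdc5 or the reverse, and the split between these genes is uncertain. Csta1 had such a counterpart for 1.77% of its stretches and Stfa3 for 0.0%. The values of Csta1, Stfa3 and Cst6 do not rest on that split.

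A sum over the cluster does not depend on how counted reads were divided among its genes, though it would miss reads that the counting dropped for fitting several genes. The 11 stefin A genes together had 3751 reads (483 CPM) in WT and 334 (35.9 CPM) in the library labelled ERAP1+/-, which is 7.44% of the WT level (95% interval 6.63% to 8.32%), a difference of -3.71. Of the 334 reads, 318 were of Csta1 and 12 of Csta2. Without Csta1, the remaining 10 had 2676 WT reads and 16 in the library labelled ERAP1+/-, or 0.499% of the WT level (95% interval 0.285% to 0.813%), a value given as a description because Csta1 was left out for its reads there.

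**Figure D4:**
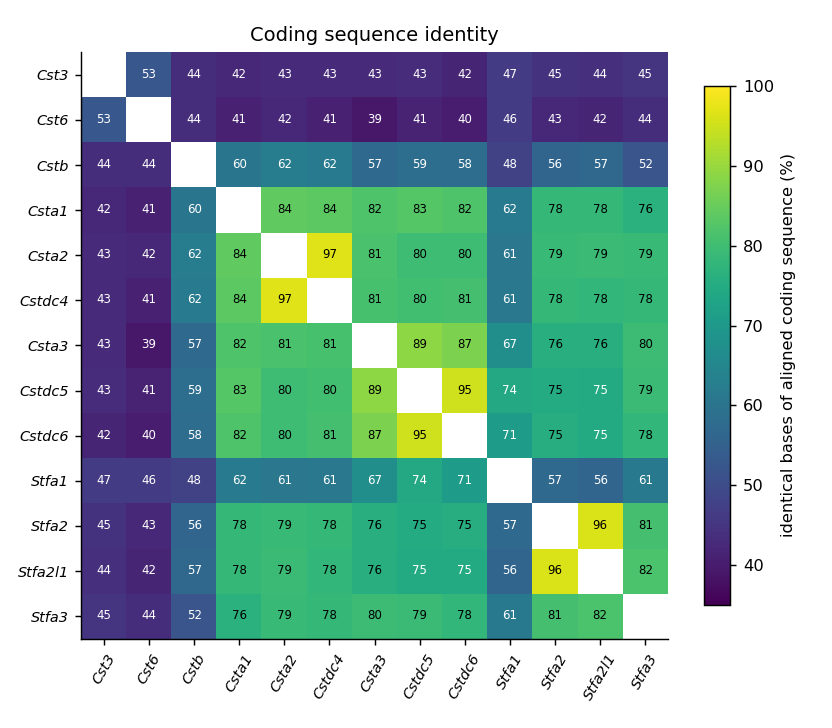
Percent of identical bases between aligned coding sequences of the cystatins and stefins, from the longest coding sequence of each gene in GENCODE M21, with darker cells for lower identity. Cstdc3 is not shown. The stefin A genes form the light block, with Cstdc5 and Cstdc6 at 95.2%, while Cstb, Cst3 and Cst6 stand apart, and Stfa1, whose annotated coding sequence is longer, is darker within the block.

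The promoters of Cstdc5, Stfa1 and Stfa3, which had 0 to 2 reads in the library labelled ERAP1+/-, are shown with that of Csta1, which kept 318, to let their letters be compared. The sequences are from RefSeq on GRCm38.p6, which holds an entry for 6 of the 9 members, and run from 250 bases before to 50 bases after the annotated start. Capitals mark runs of 12 or more bases that occur unchanged in Cstdc5, Stfa1 and Stfa3, and in Csta1 the run it shares with them.
Cstdc5, chr16:36367521-36367820, minus strand: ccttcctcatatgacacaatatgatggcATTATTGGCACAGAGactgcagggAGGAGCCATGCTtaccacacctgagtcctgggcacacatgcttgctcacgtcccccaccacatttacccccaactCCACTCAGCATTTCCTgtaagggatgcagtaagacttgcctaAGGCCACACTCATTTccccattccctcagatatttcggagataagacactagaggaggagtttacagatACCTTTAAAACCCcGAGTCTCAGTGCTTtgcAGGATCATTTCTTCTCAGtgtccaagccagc
Stfa1, chr16:36276898-36277197, plus strand: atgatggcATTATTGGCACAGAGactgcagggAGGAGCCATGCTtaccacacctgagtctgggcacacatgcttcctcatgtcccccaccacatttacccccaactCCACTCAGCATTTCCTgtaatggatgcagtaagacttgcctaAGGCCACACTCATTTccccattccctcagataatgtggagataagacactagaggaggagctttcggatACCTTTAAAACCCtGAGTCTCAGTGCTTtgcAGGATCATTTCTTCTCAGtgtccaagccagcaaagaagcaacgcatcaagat
Stfa3, chr16:36455343-36455642, minus strand: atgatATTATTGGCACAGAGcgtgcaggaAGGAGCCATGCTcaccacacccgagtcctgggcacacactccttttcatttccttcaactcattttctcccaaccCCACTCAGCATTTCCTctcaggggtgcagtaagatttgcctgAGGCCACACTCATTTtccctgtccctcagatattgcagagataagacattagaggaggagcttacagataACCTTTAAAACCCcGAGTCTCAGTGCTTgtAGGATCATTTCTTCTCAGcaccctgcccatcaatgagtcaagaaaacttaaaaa
Csta1, chr16:36131140-36131439, minus strand: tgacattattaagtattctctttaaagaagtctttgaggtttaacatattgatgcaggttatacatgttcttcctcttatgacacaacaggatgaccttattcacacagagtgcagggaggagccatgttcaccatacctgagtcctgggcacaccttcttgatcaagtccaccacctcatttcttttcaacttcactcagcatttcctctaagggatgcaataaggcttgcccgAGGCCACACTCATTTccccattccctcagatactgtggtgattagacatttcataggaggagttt

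The first 3 promoters had 7 such runs, which cover 103 of their 300 bases. The longest, AGGATCATTTCTTCTCAG with 18 bases, occurred in 4 of the 32851 promoters of the table, those of Cstdc5, Stfa1, Stfa3 and Csta3. The Csta1 window holds the run AGGCCACACTCATTT, which ends there at the annotated start, whereas in Cstdc5 it begins 81 bases before the start. The windows are thus offset, the runs further downstream lie outside that of Csta1, and no difference between Csta1 and the others is read from them. The likeness was not particular to the genes with many WT reads. Over the whole 300 bases, Cstdc5 was 83.8% identical to Stfa1 and 74.1% to Stfa3, but also 72.1% to Stfa2 (5 and 0 reads), 71.6% to Stfa2l1 (0 and 1), 68.4% to Cstdc4 and 58.0% to Csta3 (both without a read), and the promoter of Csta3 held 4 of the 7 runs.

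A set of 3 short motifs was searched on both strands of the 6 member promoters. TATAAA was in 0 of them, beside 13.6% of all 32851 promoters. TTGCNNAA, a core of C/EBP sites, was in 2 (Cstdc5, 88 bases before the start, and Stfa1, 109 bases before it), beside 10.8%, and the same letters, TTGCCTAA, occurred in the promoters of Csta3 and Cstdc3, which had no read. TGANTCA, the letters bound by AP-1, which is its own reverse complement, was in 1 (Stfa3, after the start), beside 7.81%. These are matches of letters only.

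The make-up of the cystatin RNA differed between the libraries. The 9 members had 7649 WT reads and 4177 in the library labelled ERAP1+/-, a summed level that was 45.6% of WT (95% interval 43.9% to 47.4%). In the WT library Cst3 took 28.0% of them, Cstdc5 24.9%, Csta1 14.1%, Cstb 12.01%, Cst6 11.1% and Stfa3 9.39%. In the library labelled ERAP1+/- Cst3 took 70.8%, Cstb 21.3% and Csta1 7.61%, and all others together less than 1%.

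Other cystatins added little. Of the further type 2 genes, Cst7, whose product is a peptidase inhibitor found in leukocytes, and Cst12 each had 0 WT reads and 5 in the library labelled ERAP1+/-. Cst8, Cst9, Cst10, Cst11, Cst13, Cstl1, Cstdc1 and Cstdc2 had none in either. Of the plasma proteins with cystatin domains, Fetub (fetuin B) was the only one with 10 or more reads, with 12 and 4, and Ahsg, Hrg, Kng1 and Kng2 had 0 to 6 reads per library. Apart from the 9 members, Csta2 and Fetub were thus the only genes of the wider family with that many reads over both libraries.

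The peptidases that these proteins inhibit stayed within 2-fold wherever they reached the level. All 11 genes of the list had reads in both libraries, 7 reached the level, and of these 0 were called lower and 0 higher, with 4 values below 0 and 3 above. Their median difference was -0.20, beside -0.03 over all genes past the level. The largest differences among them were those of Ctsl and Ctss, which encode cathepsins L and S. Ctss, a peptidase of antigen-presenting cells, had 5652 reads (727 CPM) in WT and 4598 (494 CPM) in the library labelled ERAP1+/-, a difference of -0.56. Ctsl, a target of Cst6 and of the stefins, had 1608 reads (207 CPM) and 1295 (139 CPM), a difference of -0.57.

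Lgmn, which encodes legumain, another target of Cst6 and of Cst3, had 159 reads (20.5 CPM) and 165 (17.7 CPM), 86.7% of WT with a 95% interval (69.3% to 109%) that includes 100%. Ctsb and Ctsh, the genes of cathepsins B and H, had differences of -0.24 and 0.27, Ctsc 0.13 and Ctsz 0.06. Under the level, Ctso had 44 WT reads and 117 in the library labelled ERAP1+/-, a ratio of 2.22 (95% interval 1.56 to 3.22), and Ctsf, Ctsk and Ctsw had ratios whose intervals include 1. Summed over the 11 genes, there were 1.46 peptidase reads per read of Cst3, Cst6, Cstb and the cluster in the WT library and 2.51 in the library labelled ERAP1+/-. The peptidase reads were 11162 in WT and 10504 in the other library, and the inhibitor reads 7658 and 4190. The inhibitors include members chosen with the near loss of Cstdc5 reads known, and the ratio depends on which inhibitors are counted. Nothing is read from its rise.

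**Figure D5:**
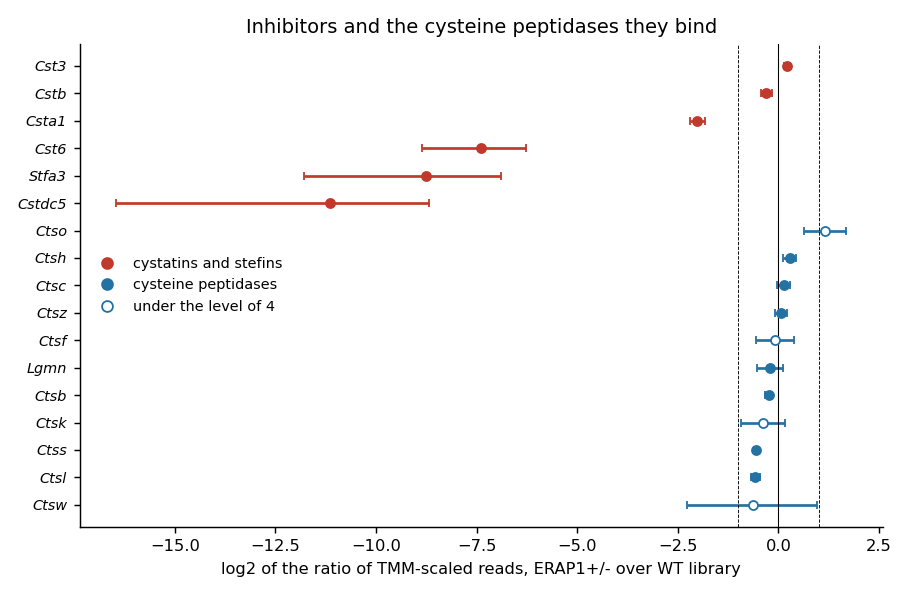
Log2 of the ratio of TMM-scaled reads, library labelled ERAP1+/- over WT library, for the 6 members past the level (red) and the 11 cysteine peptidases (blue, open where under the level), with exact 95% intervals of counting error. Dashed lines mark a 2-fold difference. The 7 peptidases past the level lie within 2-fold, whereas Csta1, Cst6, Stfa3 and Cstdc5 lie to the left of it.

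Most markers of epidermis and of basal stratified epithelium that reached the level were also called lower. Of 14 genes of suprabasal epidermis, 11 reached the level and 10 were called lower, beside 3.96% of all 8013 genes past the level. The median difference of the 11 was -4.87, beside -0.03 over all genes past the level. This list and the basal list were chosen with earlier results of these data known, so nothing is read from these gaps. The summed level of the 14 genes was 4023 CPM in WT against 1291 in the library labelled ERAP1+/-. The levels ran from 1.93 to 1397 CPM in WT and from 0 to 1243 CPM in the other library, where Ivl, Dsc1 and Dsg1a had 0 reads. Krt10, a keratin of differentiated epidermis, had 505 and 7.74 CPM. Most of the sum left in the library labelled ERAP1+/- was Tgm3, a transglutaminase that joins cornified envelope proteins, with 1397 and 1243 CPM. Of 6 basal genes of stratified epithelium, 4 reached the level and 3 were called lower (Krt5, Krt14 and Krt15), and the sum was 416 and 226 CPM. Most of that sum in both libraries was Itga6, which was not called, with 237 and 205 CPM. The part of these cells in the stefin values was not tested.

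Stefin A genes are also known from neutrophils. Of 13 neutrophil genes, 3 reached the level, S100a8 (difference 1.36) and S100a9 (1.33), which were called higher, and Ly6g (-1.32), which was called lower. Over all genes past the level, 1.39% were called higher and 3.96% lower. The granule gene Ltf had 95 WT reads and 5 in the library labelled ERAP1+/-, a ratio of 0.0440 (95% interval 0.0140 to 0.106), and Mmp9 had 36 and 29. Retnlg, Ngp, Camp, Mpo and Elane had 0 WT reads and 0 to 18 in the other library, and Csf3r, Cxcr2 and Mmp8 had 1 to 6 reads in either. The summed level of the list was 400 CPM against 190.5 in the library labelled ERAP1+/-, of which Ly6g made up 369 and 147. The levels of the list ran from 0 to 369 CPM in the WT library and from 0 to 147 in the other, where Elane had 0 reads, and the part of these cells in the stefin values was not tested. Of 10 genes of macrophages and dendritic cells, 6 reached the level and 0 were called, with a median difference of 0.32 and levels from 1.29 to 45.3 CPM in WT and from 1.40 to 57.9 CPM in the other library.

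The genes closest to Cstdc5 in level, by distance on the log2(CPM + 1) scale over the 2 libraries, were Calm4 (distance 0.36), Lor (0.57), Myh8 (0.59), Myl3 (0.77) and Fam25a (1.02). Calm4, a calmodulin-like gene of epidermis, had 2399 and 2 reads. Lor, the gene of the cornified envelope protein loricrin, had 1528 and 5. Myh8 and Myl3 encode myosins of striated muscle and had 1259 and 1 and 1702 and 8 reads, and Fam25a had 941 and 0. With 2 libraries, such likeness says no more than that these genes had similar values in each.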

How the data were processed

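RNA of the intestine, pooled from 3 mice per genotype, was sequenced as 1 library per genotype with a 3' kit. The authors deposited counts, whole reads per gene symbol without normalization, and every row carries a symbol. The methods name STAR with HTSeq and, elsewhere, Bowtie2 with RSEM on GRCm38, and the labels name Bowtie2 and RSEM. How reads of near-identical genes were divided is not given in the sources used here.

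Library sizes were scaled by TMM (edgeR 4.0.16, R 4.3.3), with factors of 0.958 (WT) and 1.04 (ERAP1+/-). Counts became CPM, with a pseudocount of 1 on the log2 scale. With 1 library per genotype the quasi-likelihood test cannot be fitted, and sizes are given without p-values. Ratios carry exact conditional binomial intervals and levels exact Poisson intervals (scipy 1.17.1), and the floor is 3 reads per library. Calls and intervals were tested on data simulated with counting error only, which cannot check the spread between mice or pools. Alternatives were DESeq2 1.42.0 size factors, the total count, a pseudocount of 0.1, other level filters, a 4-fold threshold and thinning of the larger library.

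Genes named are the members, other family genes with 10 or more reads, the peptidase list, up to 4 genes of a marker list, the neighbours of the cluster, the 5 genes nearest to Cstdc5, and Erap1. The neutrophil list is an exception to the limit of 4 and is named in full. Family genes with fewer reads, markers at 0 reads, Xist and Ddx3y were added after their values were seen. The members and lists were chosen with earlier results of these data known. Runs shared by promoters were searched after the values were seen. Positions are from RefSeq on GRCm38.p6, transcripts from GENCODE M21 matched by Entrez identifier (9 of 9 members). No other assay of the study was used here.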

Additional observations from a re-analysis of the deposited data

How the results depend on the processing

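The 4 members called lower were called under DESeq2 size factors, the total count, a pseudocount of 0.1, a level of at least 6 and thinning. Without a level filter, or with at least 10 reads in 1 library, Stfa1 joined them (5), and at a 4-fold threshold Csta1 was not called (3). Over all genes, the 428 called became 1434 with no filter, 1390 with at least 10 reads in 1 library, 160 with a level of at least 6 and 160 at a 4-fold threshold, because these settings test more or fewer genes or ask for a larger difference. Scaling by the total count shifted the median difference by 0.12 and gave 59.9% lower among those called, against 74.1%. Of 32 recomputed differences of members, 0 changed sign. Cst3 moved by more than counting error, to 0.33 with the total count. With a pseudocount of 0.1, Stfa1 moved to -5.71 and Cstdc6 to -3.12. Both had 0 reads in the library labelled ERAP1+/-, so the intervals of their ratios reach down to 0 and include these values. Size depends on the pseudocount for members with few reads in 1 library: with 0.1, Cstdc5 went from -7.79 to -10.21, Stfa3 from -6.26 to -8.20 and Cst6 from -6.07 to -7.20, so that the printed log2 differences understate the ratios of these members. The summed cluster ran from -3.75 to -3.59 and the peptidase median from -0.21 to -0.08. No paired analysis was possible because there is only 1 library of either genotype, and none could be left out. Depth limits Cstdc5 and Stfa3, whose levels in the library labelled ERAP1+/- rest on 1 and 2 reads.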
